A study of Arabidopsis thaliana with 69 samples.

Results

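The 150 Arabidopsis genes described here were chosen by measured values, for a change of limited size at 6 and 9 h after induction of VND7 and the most negative changes at 30 h among the genes so limited. In the VND7 line the mean log2 signal of the arrays with dexamethasone (DEX) was taken minus that of the solvent arrays (DMSO), probe set by probe set. Of 13513 probe sets that name 1 gene, 8923 changed by less than 1 on the log2 scale at both 6 and 9 h. After 121 of these were set aside by symbol (subunits of the plastid photosystems, ribosomes and polymerase, and several wall and detoxification families), 8802 were ranked by their change at 30 h and the 150 most negative were kept, from 150 loci. The changes at 6, 9 and 30 h are therefore descriptions, with no test, and tests are given only for other times and for the empty-vector line. Gaps between the DEX and DMSO arrays at 30 h are descriptions too. The choice favours them, and they are set against no share of all probe sets.

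Seedlings of ecotype Col-0 grew for 6 days in dark liquid culture, and the labels name the tissue as hypocotyl although whole cultures were harvested. The induced line carried VND7-VP16-GR under the 35S promoter, which drives expression in most cells. This fusion is the xylem transcription factor VND7 joined to the VP16 activation domain and to GR, the part of the glucocorticoid receptor that binds the hormone and lets DEX bring the fusion into the nucleus. It received 10 µM DEX or DMSO and was sampled at 1, 3, 6, 9, 12, 24, 30 and 48 h, with further DMSO cultures at 0 h. The empty-vector line carried VP16-GR alone and received DEX or DMSO for 9, 12 or 24 h. All 23 groups had 3 arrays, 69 in all, and every value below is a log2 signal of 1 probe set on an Affymetrix ATH1 array, so that a difference of 1 is a doubling or halving of the signal. The number of arrays limits the precision.

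VND7 is known as a switch for xylem vessel formation. Cells that follow it deposit patterned secondary walls and then digest their contents, plastids included, in a programmed death. In the dark, seedling plastids stay as etioplasts, which import most of their proteins from nuclear genes and make a few from their own genome.

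Of the 150 genes, 19 carried a gene symbol and 131 only a locus code. A synonym added mTERF9 for AT5G55580, which made 20 genes with a known product, and no role is given to the other 130. Chromosomes 1 to 5 held 29, 29, 29, 24 and 36 of the genes, and the plastid genome 3, which is 2% of the genes against 0.511% of all one-gene probe sets. The latter still include the plastid genes set aside by symbol, so these shares are of unlike sets and nothing is read from them. The median over the 150 genes of the mean signal on all arrays was 6.42, against 4.67 over all one-gene probe sets. All 150 were above the floor of the values, 2.14, by more than 0.3 in at least 3 arrays, and 8 had a DEX mean within 0.3 of the floor at 30 h, so that their fall is cut short by it.

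Among the 20 genes with a known product, 12 encode proteins that work in plastids, a count made after their values were seen and set against no background. The 3 plastid-encoded ones fell most clearly in matK, the plastid intron maturase. Its signal at 30 h was 11.52, 12.22 and 11.83 in DMSO and 9.58, 8.38 and 8.08 in DEX, a change of −3.17, with every DEX array below every DMSO array. cemA, a protein of the chloroplast envelope, read 9.57, 10.22 and 9.85 in DMSO and 8.67, 8.13 and 7.89 in DEX. clpP, the plastid-encoded subunit of the Clp protease, read 10.51, 11.53 and 10.93 in DMSO and 9.70, 9.17 and 9.35 in DEX. Neither pair of groups overlapped, and the changes were −1.65 for cemA and −1.58 for clpP.

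Nuclear genes for plastid proteins made up 9 of the 12. FTSZ2-2, a tubulin-like protein of the plastid division ring, read 6.49, 7.43 and 7.01 in DMSO at 30 h and 4.50, 4.18 and 4.16 in DEX, a change of −2.70. AAE15, which activates fatty acids for elongation in the chloroplast, read 7.94, 7.83 and 8.06 against 5.80, 5.09 and 5.94. CLPP4, a nuclear-encoded partner of clpP in the Clp protease core, read 10.50, 11.30 and 11.05 against 9.14, 8.79 and 8.77. In all 3 genes the DEX arrays lay more than 1 unit below the lowest DMSO array.

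Falls between 1.22 and 1.72 were found in the other 6. HEME2, a uroporphyrinogen decarboxylase on the way to chlorophyll and haem, read 8.91, 8.68 and 9.12 in DMSO and 7.44, 7.24 and 7.29 in DEX. TAPX, the ascorbate peroxidase of the thylakoid membrane, read 5.97, 4.98 and 6.60 against 4.43, 4.13 and 3.82, with a wide spread in DMSO. MENG, a methyltransferase of phylloquinone synthesis, read 6.76, 6.82 and 7.03 against 5.46, 5.94 and 5.52. The groups did not overlap in any of these genes. Mfl1, a mitoferrin-like carrier of the chloroplast, changed by −1.68, mTERF9, a plastid member of a family first known from mitochondrial transcription termination, by −1.38, and NDC1, a plastid NAD(P)H dehydrogenase, by −1.22.

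The remaining 8 genes with a known product work elsewhere. TPI, the cytosolic triose phosphate isomerase of glycolysis, read 12.52, 13.11 and 12.82 in DMSO at 30 h and 11.24, 11.64 and 11.62 in DEX. iqd21, a member of the calmodulin-binding IQ domain family, read 3.82, 4.12 and 4.24 in DMSO and 2.75, 2.67 and 2.75 in DEX, near the floor. For TPI and for iqd21 the DEX arrays lay below all DMSO arrays. The other 6 changed by −2.29 for HVA22C (a homologue of barley HVA22), −1.93 for CKS (which activates the pectin sugar Kdo), −1.81 for 3xHMG-box1 (a chromatin protein), −1.65 for NET1A (an actin-binding protein), −1.63 for CPUORF47 (an upstream reading frame) and −1.22 for JAL22 (a jacalin-related lectin).

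**Figure D1:**
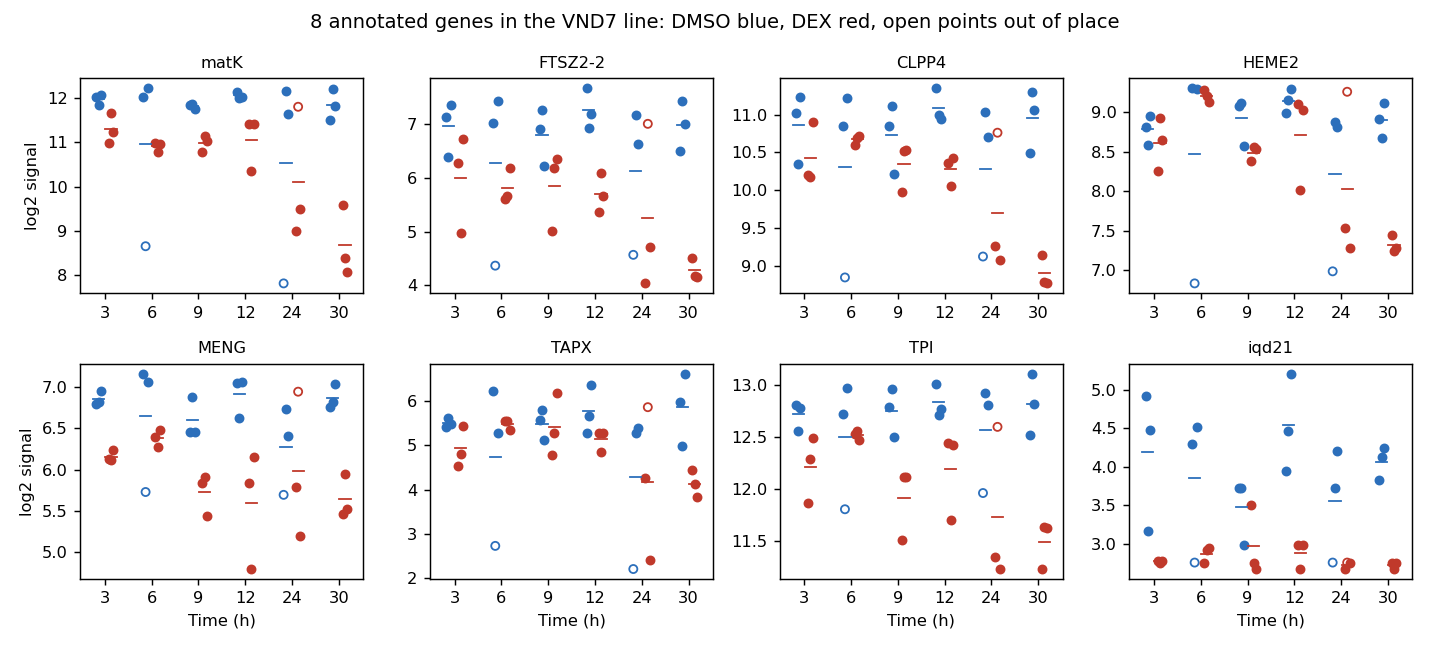
Log2 signal of 8 genes with a known product against time in the VND7 line, one point per array, with short lines at group means, DMSO in blue and DEX in red. Open points are the arrays out of place. At 30 h the DEX points of matK lie between 8.08 and 9.58 and its DMSO points between 11.52 and 12.22, while iqd21 is already low in DEX at 3 h.

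The deepest fall of all belonged to AT4G38690, which has no known product in the sources used here. Its signal at 30 h was 7.46, 6.72 and 7.34 in DMSO and 3.59, 2.83 and 2.68 in DEX, a change of −4.14. AT3G48420 read 5.99, 5.63 and 6.54 against 3.18, 3.28 and 3.16. AT2G46630 read 5.66, 7.30 and 5.70 against 3.27, 3.68 and 3.34. In all 3 loci the DEX arrays lay more than 1 unit below the lowest DMSO array.

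Further deep falls at 30 h were those of AT1G49010 (−2.62), AT1G52510 (−2.58), AT4G00780 (−2.54), AT5G52280 (−2.51), AT2G03980 (−2.48), AT2G47440 (−2.46), AT2G21385 (−2.44), AT1G29520 (−2.38), AT2G21640 (−2.37) and AT3G10840 (−2.35). AT1G52510 sat at the floor, 2.14, in all 3 DEX arrays, so its fall is a lower limit of the size. Over the 150 genes the median change was −1.54, with 32 genes falling by 2 or more and 65 by less than 1.5. The order closed with NDC1, AT3G43690 and AT3G62650 (−1.22, −1.21 and −1.21), and the first genes left out were AT5G15740, AT1G32190 and AT5G63100 (−1.21, −1.20 and −1.20), so no gap separates the sides of the limit.

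Several arrays did not group with their labels, and the choice of the genes rested on one of them. In the VND7 line 9 arrays correlated better with the other treatment than with their own, and 1 more, DMSO 0 h replicate 3, had its nearest arrays among those 9. They are called out of place below. Among those labelled DEX these were replicates 2 and 3 of 1 h, replicate 2 of 24 h and the whole group of 48 h. Among those labelled DMSO they were replicate 3 of 0 h, replicate 2 of 1 h, replicate 2 of 6 h and replicate 1 of 24 h. The mean of 4 xylem markers was 5.85 to 6.39 in DMSO 0 h replicate 3, DEX 1 h replicate 2 and DEX 24 h replicate 2. These 3 lay between the DMSO arrays in place, at 4.09 to 4.63, and the DEX arrays in place, at 7.66 to 12.57. Among the DEX arrays in place, 3 h replicate 2 and 12 h replicates 1 and 3 had 7.68, 7.90 and 7.66, and the others 10.91 to 12.57. The mean signal of the 150 genes was 5.07 in DMSO 6 h replicate 2, against 6.83 and 6.90 in the other DMSO arrays of 6 h and 6.23 to 6.25 in DEX. With all arrays the median change at 6 h was −0.06. Without DMSO 6 h replicate 2 it was −0.60, and 36 of the 150 genes lay beyond −1 and would have been left out. The limit at 6 h therefore does not show an absence of change at that time.

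**Figure D2:**
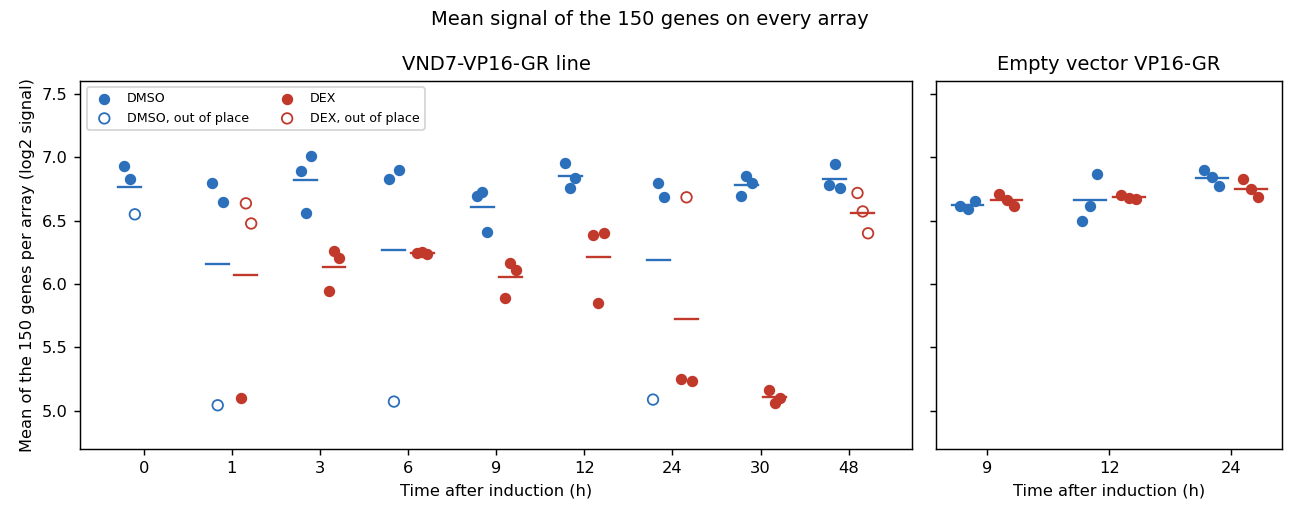
Mean log2 signal of the 150 genes on every array, against time, for the VND7 line and the empty-vector line. Points are arrays, short lines are group means, and open points are the 10 arrays out of place. The DEX arrays of 30 h lie at 5.06 to 5.16, the DMSO arrays of 30 h at 6.69 to 6.85, and all empty-vector arrays at 6.50 to 6.90.

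Some DEX arrays were most like arrays with another time label. DEX 3 h replicate 2 correlated at r = 0.995 with DEX 12 h replicate 1 and at 0.937 with DEX 3 h replicate 1, over all probe sets. DEX 12 h replicate 2 correlated at 0.992 with DEX 3 h replicate 1 and at 0.936 with DEX 12 h replicate 1. DEX 1 h replicate 1 correlated at 0.990 with DEX 30 h replicate 2, and the mean signal of the 150 genes was 5.10 on it, a level of the 30 h arrays. The results at 1, 3, 12, 24 and 48 h that follow are for arrays as labelled, with the values without the doubtful arrays beside them. These arrays were found from the same values, so that leaving out those of the other treatment raises the counts of DEX effects by construction.

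At 3 h of DEX the genes were modestly lower. Across them the median change was −0.67, with 138 of 150 below 0, against a median of 0 over all 22746 probe sets tested, many of which lie at the floor. In limma, with a Benjamini-Hochberg adjusted p under 0.05 and a fall of at least 1, 18 genes (12%) were lower and 0 higher, where 17.4% of all probe sets were lower and 10.4% higher, so the share is no larger than the background. All 3 DEX arrays lay below all 3 DMSO arrays in 60 genes (40%), against 24.6% of all probe sets. Leaving out DMSO 3 h replicate 3 gave 7 lower genes, DMSO replicate 1 gave 9, DMSO replicate 2 gave 31 and DEX replicate 2 gave 30.

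The largest falls at 3 h were in genes with only a locus code. AT2G18220 read 6.08, 3.79 and 6.59 in DMSO and 3.63, 3.21 and 2.84 in DEX. AT1G16790 read 6.36, 5.84 and 6.37 against 4.57, 3.87 and 5.33. The groups were apart in both, narrowly so for AT2G18220, whose DMSO replicate 2 was low. The limma changes were −2.26 ± 0.66 (SE, adjusted p = 0.00458) for AT2G18220 and −1.60 ± 0.34 (SE, adjusted p = 0.000171) for AT1G16790, both with Benjamini-Hochberg adjustment. AT5G39840 fell by 2.03, AT3G52110 by 1.92 and AT4G17540 by 1.64 on the log2 scale. Of the 20 genes with a known product, NET1A and iqd21 were called at 3 h, and none of the 12 plastid genes was.

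At 12 h the picture was of the same size. The median change was −0.68, with 130 of 150 genes below 0, and 22 genes (14.7%) were lower by limma with 0 higher, against 13.2% of all probe sets lower and 8.94% higher. The DEX arrays lay below all DMSO arrays in 78 genes, where 24.5% of all probe sets did so. In all, 9 genes (6%) were called lower at both 3 and 12 h, against 12.1% of all probe sets, and 31 (20.7%) at one or both, against 18.5%. The limits at 6 and 9 h bear on these shares too, so nothing is read from them.

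iqd21 was among the largest falls at 12 h. It read 3.95, 4.46 and 5.21 in DMSO and 2.98, 2.67 and 2.98 in DEX, a change of −1.67 ± 0.44 (SE, limma, Benjamini-Hochberg adjusted p = 0.00231). MENG read 7.04, 6.62 and 7.05 against 5.84, 4.80 and 6.16, and its change of −1.31 was called (limma, Benjamini-Hochberg adjusted p = 0.000784). Both genes were lower in every DEX array. Other large falls were −2.19 in AT4G11100, −1.85 in AT2G18220, −1.70 in AT2G23360 and −1.63 in AT5G16040. FTSZ2-2 changed by −1.56 without passing the test (limma, Benjamini-Hochberg adjusted p = 0.0614).

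The 12 h count stayed between 17 and 23 when 1 array was left out, and rose in fits that left out several. The mean signal of the 150 genes was 6.39, 5.85 and 6.40 in the DEX arrays. Without the 10 arrays out of place, 38 genes were called lower at 12 h, against 15.9% of all probe sets, and 33 at 3 h, against 19.1%. None of these arrays is of 3 or 12 h, so the changes stayed as they were and the counts rose with smaller standard errors. When DEX 3 h replicate 2 and DEX 12 h replicates 1 and 3 were left out as well, 72 genes (48%) were lower at 12 h, against 19% of all probe sets, with a median change of −1.05. In the same fit 44 genes (29.3%) were lower at 3 h, against 20.4%, and 3 genes fell further at 12 h than at 3 h, against 0.4% of all probe sets. That fit keeps 1 DEX array at 12 h, replicate 2, whose spread is taken to be that of the other groups. The nearest array of replicate 2 is DEX 3 h replicate 1, while the 12 h replicates left out correlated at 0.996 with each other. The 12 h counts of this fit thus rest on 1 array that is itself doubtful in time, and nothing is read from them. The DEX effect at 12 h was not called different from that at 3 h in any of the 150 genes with all arrays (limma, 3 genes at an unadjusted p under 0.05), against 0.022% of all probe sets.

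The level of these falls depends on the scaling between arrays. Centring each array on its median raised the median over all probe sets by 0.58 at 3 h, 0.49 at 12 h and 0.43 at 30 h, because DEX arrays had lower medians. The median change of the 150 genes was then −0.09 at 3 h, −0.19 at 12 h and −1.11 at 30 h, and 0.37 at 6 h. The counts became 4 lower at 3 h, against 10.9% of all probe sets, and 8 lower and 4 higher at 12 h, against 8.22% lower and 17.1% higher. With centring the shares called lower at 3 and 12 h were below those of all probe sets. Nothing is read from this, since the choice limited the changes at 6 and 9 h. The 30 h value is a description, since the genes were chosen on it.

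**Figure D3:**
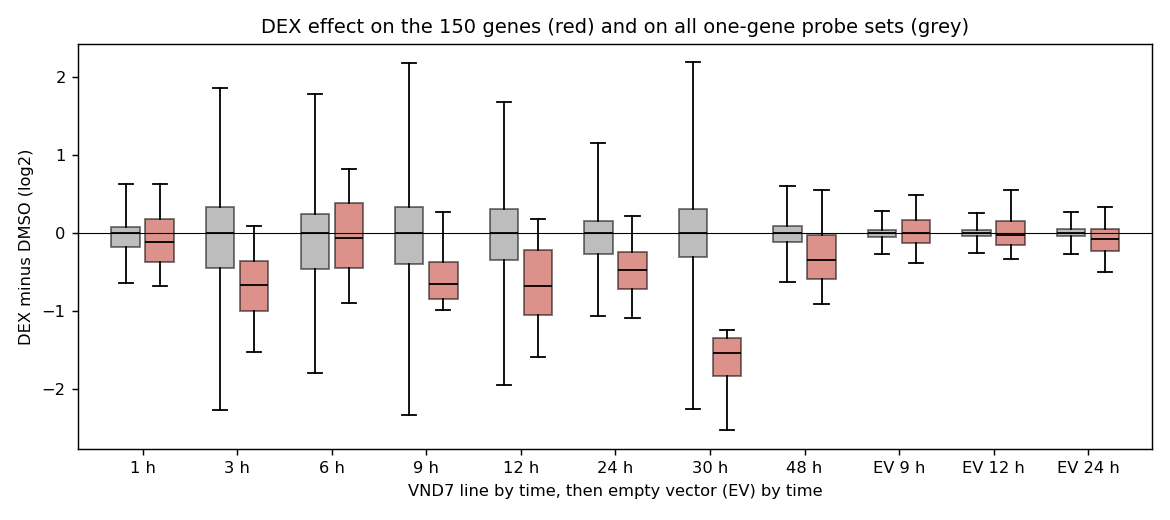
Log2 change with DEX (DEX mean minus DMSO mean, all arrays as labelled) at each time in the VND7 line and at 3 times in the empty-vector (EV) line, for the 150 genes in red and all 13513 one-gene probe sets in grey. Boxes span the quartiles with the median as a line, and whiskers run from the 5th to the 95th percentile. The medians of the 150 genes are −0.67 at 3 h, −0.06 at 6 h, −0.65 at 9 h, −0.68 at 12 h, −0.47 at 24 h and −1.54 at 30 h, the time that chose them.

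At 24 h, the nearest time not used in the choice, the result turned on 2 arrays. The mean signal of the 150 genes was 5.25, 6.68 and 5.24 in the DEX arrays and 5.09, 6.80 and 6.69 in the DMSO arrays. DEX replicate 2 was as high as the DMSO arrays, and DMSO replicate 1 as low as the DEX arrays of 30 h. With all arrays 1 gene (0.667%) was called lower and 0 higher, against 1.46% of all probe sets lower and 2.89% higher, and the median change was −0.47. That gene was AT4G36010 (−1.04, limma, Benjamini-Hochberg adjusted p = 0.0446), named after its values were seen, and its groups overlapped. The DEX arrays lay below all DMSO arrays in 2 genes, against 4.25% of all probe sets. Leaving out DEX 24 h replicate 2 alone gave 41 genes and leaving out DMSO 24 h replicate 1 alone gave 28, while leaving out any other array of 24 h gave 0.

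Without the 10 arrays out of place 114 genes (76%) were lower at 24 h by limma and 0 higher, against 17.1% of all probe sets lower and 13.3% higher, and the median change was −1.43. DEX replicate 1 lay below both remaining DMSO arrays in 99.3% of the genes and DEX replicate 3 in 98.7%, whereas replicate 2 did so in 43.3%. With array centring in addition, 65 genes (43.3%) were lower and 0 higher, against 12% of all probe sets lower and 21% higher, with a median change of −0.95. The 24 h comparison has 2 arrays a side in these fits. DEX 24 h replicates 1 and 3 each had DEX 30 h replicate 1 among their 2 nearest arrays, and the genes were chosen on 30 h. The excess over all probe sets is therefore partly built in and is no independent support for the fall.

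Single genes at 24 h were close to their 30 h levels in DEX replicates 1 and 3. AT4G38690 read 3.27, 5.38 and 3.73 in DEX and 2.26, 7.10 and 7.91 in DMSO. matK read 9.00, 11.80 and 9.49 in DEX and 7.82, 12.17 and 11.65 in DMSO. HEME2 read 7.53, 9.26 and 7.29 in DEX and 6.99, 8.87 and 8.81 in DMSO. In each gene the first DMSO array was the lowest of the 6. The second DEX array lay among the DMSO arrays or above them for matK and HEME2, and between the groups for AT4G38690.

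Without the arrays out of place the 24 h change was −2.67 ± 0.36 (SE) for matK and −1.43 ± 0.22 for HEME2, called by limma with Benjamini-Hochberg adjusted p of 1.09e-07 and 1.52e-06. AT4G38690 again had the deepest fall (adjusted p = 7.49e-10 in the same fit). AT2G46630 changed by −3.32, AT1G66940 by −3.29, AT3G58830 by −2.77 and AT3G48420 by −2.69. Of the 12 plastid genes 11 were called, NDC1 being the exception at −0.83, and of the 8 other genes with a known product 6 were, CPUORF47 (−0.93) and 3xHMG-box1 (−1.77 ± 0.91, SE) being the exceptions. In the same fit 41 of the 114 genes were also called lower at 3 or 12 h (27.3% of the 150 genes, against 14.5% of all probe sets) and 73 were not (48.7%, against 2.63%). The rule limited the changes at 6 and 9 h and chose on 30 h, times that lie beside these, so nothing is read from this split.

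Whether the fall deepened between 12 and 24 h was tested on the difference of the DEX effects. With all arrays no gene was called (limma, 5 at an unadjusted p under 0.05), against 0.87% of all probe sets lower and 0.462% higher. Without the 10 arrays 43 genes (28.7%) had a lower effect at 24 h than at 12 h, against 5.51% of all probe sets, and 44 with centring in addition, against 5.92%. AT1G66940 differed most, by −3.32 ± 0.56 (SE), followed by AT5G04060 by −2.99 ± 0.37 and AT4G38690 by −2.97 ± 0.56. The rule limited the changes at 6 and 9 h and chose on 30 h, and the 10 arrays were found from the same values. A share above that of all probe sets is therefore partly built in, and nothing is read from it. Once DEX 3 h replicate 2 and DEX 12 h replicates 1 and 3 were also left out, 14 genes (9.33%) were lower and 1 higher, against 3.2% and 2.95% of all probe sets, with a median difference of −0.44.

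AT5G04060 shows the pattern at the level of arrays. At 12 h it read 6.70, 6.72 and 7.01 in DMSO and 7.50, 6.54 and 7.39 in DEX. At 24 h it read 4.68, 6.58 and 7.18 in DMSO and 4.22, 6.90 and 4.20 in DEX. At 30 h it read 6.91, 6.70 and 7.03 in DMSO and 5.19, 5.50 and 5.79 in DEX. The DEX groups overlapped DMSO at 12 and 24 h and were apart at 30 h.

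**Figure D4:**
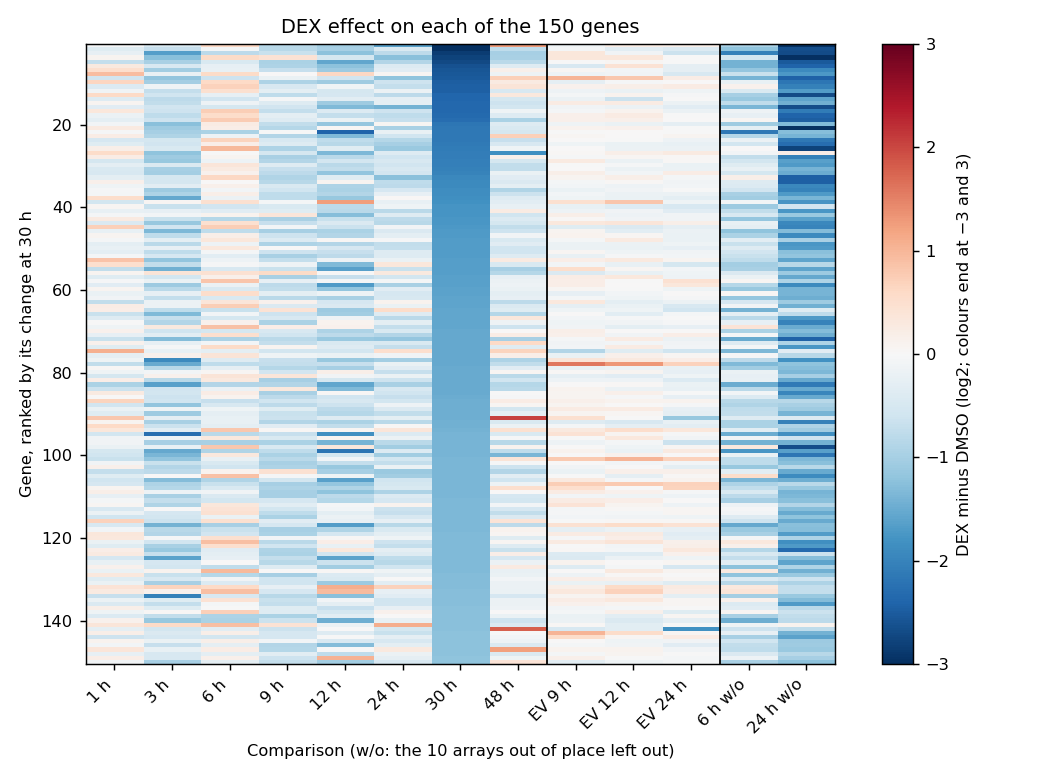
Log2 change with DEX of each of the 150 genes (rows, ranked by the change at 30 h) in each comparison (columns): 8 times in the VND7 line, 3 times in the empty-vector (EV) line, and the 6 and 24 h comparisons without the 10 arrays out of place. Blue is lower and red higher with DEX. The 24 h column turns from a median of −0.47 to −1.43 without these arrays, and the EV columns stay near 0.

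At 1 and 48 h no gene was called in either direction with all arrays (limma), against 0.00879% and 0.0044% of all probe sets called lower. At an unadjusted p under 0.05 there were 1 gene at 1 h and 8 at 48 h. Without the arrays out of place 108 genes were lower at 1 h, against 16.6% of all probe sets, on the strength of DEX replicate 1, which resembled the 30 h arrays. The DEX arrays of 48 h had mean signals of 6.72, 6.57 and 6.40 for the 150 genes, near those of DMSO, and all 3 correlated better with the DMSO arrays over all probe sets, so that 48 h has no value without them. In 33 genes they lay below all DMSO arrays of 48 h, against 8.49% of all probe sets. AT4G38690, the gene with the deepest fall at 30 h, read 7.75, 7.26 and 8.36 in DEX and 6.71, 6.24 and 6.58 in DMSO at 48 h, higher in every DEX array but not past the test.

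DEX without VND7 left most of the genes near their DMSO levels. In the empty-vector line the change averaged over 9, 12 and 24 h had a median of −0.04 across the 150 genes. No gene was called lower (limma, 6 genes at an unadjusted p under 0.05 in either direction), against 0.0176% of all probe sets, and 1 was called higher, against 0.202%. This was AT5G27330, at 1.19 ± 0.30 (SE, limma, Benjamini-Hochberg adjusted p = 0.0456). It read 6.82, 6.38 and 7.12 in DMSO and 8.36, 8.38 and 8.30 in DEX at 9 h, with no overlap. Its call was lost when the replicate number was fitted as a block (adjusted p = 0.0567 in limma).

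The DEX effects of the lines were compared directly at 12 h. In limma 6 of the 150 genes (4%) had a lower effect in the VND7 line and 0 a higher one, against 7.43% of all probe sets with a lower and 6.01% with a higher one. The limits at 6 and 9 h bear on this share as well, so nothing is read from it. iqd21 differed most, by −2.21 ± 0.62 (SE, Benjamini-Hochberg adjusted p = 0.01). AT1G75710 differed by −1.94, AT5G16040 by −1.60, AT1G16790 by −1.45 and AT5G64550 by −1.34. Part of the first 2 differences was a rise with DEX in the empty-vector line for iqd21 and AT1G75710. AT1G75710 changed by −1.15 in the VND7 line and by 0.79 in the empty-vector line at 12 h. iqd21 changed by −1.67 in the VND7 line at 12 h, and by 0.48 in the empty-vector line averaged over its times. Centring each array left 2 genes lower, against 5.13% of all probe sets, and made 1 higher, against 15%. iqd21 and AT1G75710 still passed, and the other 3 named genes did not. With 1 array left out the count was 2 to 5, at 2 without empty-vector DEX replicate 2 or VND7 DMSO replicate 1, and at 3 without empty-vector DMSO replicate 1 or 2 or DEX replicate 3. No array out of place enters this comparison, so leaving those arrays out changed the standard errors and not the differences. Without the 10 arrays out of place there were 24 genes with a lower effect in the VND7 line, against 14.3% of all probe sets. Leaving out the 3 DEX arrays of 3 and 12 h as well kept 1 DEX array at 12 h, so no count is given for that fit.

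Age of the culture alone brought few calls among the genes. In DMSO of the VND7 line 0 genes differed between 48 and 3 h by limma, 0 also at an unadjusted p under 0.05, against 0% of all probe sets called. In the empty-vector line, 24 h was set against 9 h with both treatments averaged. The 150 genes had a median change of 0.13, with 41 of them below 0 and 13 at an unadjusted p under 0.05 (limma). The largest rise, 1.66 in AT3G48420, was not called with all arrays. It was called without the arrays out of place (limma, Benjamini-Hochberg adjusted p = 0.00437). With all arrays 0 genes were higher, against 0.202% of all probe sets, and 1 was lower, against 0.185%. This was AT2G25150, with −2.11 ± 0.39 (SE, limma, Benjamini-Hochberg adjusted p = 0.000889). It read 5.56, 6.14 and 5.43 in DMSO at 9 h and 4.16, 3.92 and 5.13 at 24 h. Its DEX arrays at 48 h in the VND7 line, 3.66, 4.08 and 5.99, lay above its DMSO arrays of 2.55, 2.37 and 2.66, as those of AT4G38690 did.

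The pathway lists could place few of the genes. They were matched on symbols and gene names, and 131 of the 150 genes had only a locus code. The counts below are therefore not read as low membership. Of 24 lists picked by symbol and gene name, 3 held 1 of the genes each and none held more: HEME2 among 9 measured genes of chlorophyll synthesis, TAPX among 10 peroxidases and CLPP4 among 67 proteases. The protease list did not match clpP, the plastid-encoded Clp protease subunit, although it is among the 150 genes. At 24 h without the arrays out of place, 6 of the 9 chlorophyll synthesis genes were called lower and 1 higher, 4 of the 10 peroxidases lower and 3 higher, and 13 of the 67 proteases lower and 11 higher. Of all probe sets 17.1% were lower and 13.3% higher there, close to the protease shares of 19.4% and 16.4%. No gene of the 7 light-harvesting and photosystem proteins was among the 150, and 6 of the 7 were called lower in that comparison. The lists for ribosomal proteins, arabinogalactan proteins and GDSL lipases matched no one-gene probe set by name. This does not show that the array lacks such genes or that the 150 genes include none.

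Markers of other cell types moved in the same arrays. No marker list stood for hypocotyl, the labelled tissue. The summed log2 signal of the 3 measured of 15 listed green mesophyll markers, LHCB4.1, RCA and PRK, was 33.04 to 35.00 in DMSO and 16.10 to 18.23 in DEX at 30 h. That of the 4 measured of 15 xylem vessel markers, IRX15, IRX15-L, GUT2 and AT1G66810, was 17.01 to 18.50 in DMSO and 43.63 to 46.40 in DEX. The root hair genes EXPA7 and EXPA18, 2 measured of 6, summed to 6.91 to 8.24 in DMSO and 10.77 to 12.02 in DEX. OPS, the 1 phloem marker measured of 6, was 3.07 to 3.78 in DMSO and 3.33 to 3.52 in DEX. SPCH, MUTE and FAMA of the stomatal lineage and CLV3 and UFO of the shoot meristem were at the floor in all of these arrays. No epidermis or root meristem marker was found among the one-gene probe sets. Markers called measured are those found there, and 8730 probe sets carried no name, so the array may hold others. The part of cell type in the fall of the 150 genes was not tested. In these bulk samples fewer cells of a type and less RNA per cell cannot be told apart.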

How the data were processed

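The files hold log2 signals as deposited by the authors, one for each probe set. The submitters' processing notes name GCRMA, whose version is not given in the sources used here. No scaling was added. Of 22810 probe sets, 64 controls were left out. Names came from the platform annotation, updated by locus through a reference gene table, which matched 13436 of 13513 one-gene probe sets. No coordinates or sequences were used. Array medians ran from 4.89 to 5.60.

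limma 3.58.1 in R 4.3.3 was fitted to all 69 arrays, with a mean for each group and eBayes set to a trend of the variance with signal. Tests were two-sided, with Benjamini-Hochberg adjustment over all 22746 probe sets. Standard errors are those of the fit, so that arrays elsewhere in the series can widen them. Comparisons that share arrays are not independent. Figures were drawn with matplotlib 3.10.9 in Python 3.11.15.

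The genes, the gene lists and the tests were chosen with earlier results of these data known. Named are the 15 deepest falls at 30 h, the 3 genes on each side of the limit, the 5 largest called falls and rises of each comparison (at 3, 12 and 24 h only where the groups do not overlap), and genes with a known product. Others, and the genes named at 24 h without the arrays out of place, were picked after their values were seen. Replicate numbers did not pair the arrays: deviations of 24 same-numbered DEX and DMSO pairs correlated from −0.78 to 0.77, and 6 pairs exceeded 0.1.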

Additional observations from a re-analysis of the deposited data

Results flagged for a closer look

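At 12 h the DEX effect differed between the lines in 6 of the 150 genes, all lower in the VND7 line, by limma's test of the difference itself. On the log2 scale the difference was −2.21 for iqd21, −1.94 for AT1G75710, −1.60 for AT5G16040, −1.45 for AT1G16790 and −1.34 for AT5G64550. The share called, 4%, was below the 7.43% of all probe sets. Nothing is read from this, since the choice limited the changes at 6 and 9 h. With 1 array left out the count was 2 to 5, and with each array centred on its median it was 2 lower and 1 higher, with AT5G16040, AT1G16790 and AT5G64550 no longer called. Their DEX arrays of 12 h in the VND7 line included replicates 1 and 3, whose nearest arrays were each other and DEX 3 h replicate 2.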

How the results depend on the processing

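Leaving out arrays changed these counts most. Counts of genes called lower ran from 7 to 31 at 3 h, 17 to 23 at 12 h and 0 to 41 at 24 h with 1 array left out, from 2 to 5 for the difference between the lines at 12 h and from 0 to 2 for that between 24 and 12 h. Without the 10 arrays out of place, an alternative added after the data were seen, they were 33 at 3 h, 38 at 12 h, 114 at 24 h, 108 at 1 h (with 1 DEX array, which resembled 30 h), 24 between the lines and 43 between 24 and 12 h, and with centring too 65 at 24 h and 44 between 24 and 12 h. Without the 3 DEX arrays of 3 and 12 h as well, also added later, they were 44, 72, 61 between the lines, 3 between 12 and 3 h, and 14 between 24 and 12 h.

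Centring each array on its median gave 4, 8 and 0 genes at 3, 12 and 24 h, 2 between the lines, median changes of 0.37, −0.10 and −1.11 at 6, 9 and 30 h, and 53 of the 150 genes when the choice was repeated. Quantile normalization gave 8 at 3 h, 0 at 24 h and 2 between the lines, and an equal mean of bright probe sets, added later, gave 0 at 24 h. Fits of the compared groups alone gave 6, 0 and 15 at 3 h, 24 h and between the lines. With the replicate number as a block the counts were 17 at 3 h, 21 at 12 h and 1 at 24 h. Repeating the choice with 1 array left out kept 114 to 146 of the 150 genes. The causes of these differences were not tested. Signals near the floor, 2.14, limit the falls of dim genes.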
